A study of Arabidopsis thaliana with 6 samples.

Results

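The GRP9 and GRP3 glycine-rich protein genes are 6 related genes that lie close together on chromosome 2 of Arabidopsis thaliana. They are GRP3S (AT2G05380), GRP9 (AT2G05440), AT2G05510, GRP3 (AT2G05520, listed as GRP-3), AT2G05530 and AT2G05540, and they take 6 of the 26765 rows of the deposited expression table. The members were chosen by name, with the difference between the groups in this table already known. Their differences between the groups are therefore a description and carry no test.

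The study compared wild type plants with plants of the genotype epic2, both in the Col-0 background. Shoots of seedlings, harvested 17 days old after growth at 24 °C with light for 16 h a day, gave the RNA, and there were 3 biological replicates of either genotype. The altered gene in epic2, and whether the line was backcrossed, are not given in the sources used here. The authors deposited 1 FPKM value per gene and group (reads corrected for transcript length and for the reads mapped in the library), so each level below pools 3 samples and has no spread of its own. In the table the groups are called silex and epic2. Since silex occurs in no label, it was taken as the wild type by elimination, and every direction below is epic2 against silex.

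Glycine-rich proteins carry long runs in which glycine is the commonest residue, and many have an N-terminal signal peptide that sends them to the cell wall. GRP3 is known in Arabidopsis as an extracellular ligand of WAK1, a wall-associated receptor kinase that spans the plasma membrane and touches the pectin of the wall, and it has been found in a complex with WAK1 and the phosphatase KAPP. GRP9 is known as a partner of CAD5, a cinnamyl alcohol dehydrogenase of lignin synthesis. The reference annotation describes GRP3 as expressed mainly in stems and leaves, with mRNA that goes up with abscisic acid, salicylic acid and ethylene and down with desiccation.

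The 6 genes all stood on the plus strand and spanned 67.4 kb, from 1966816 to 2034217 of chromosome 2 in TAIR10. GRP3S came first, and gaps of 25, 21.5, 9.3, 2.5 and 2.6 kb separated the rows that followed in the order given above. In each gene the isoform used had 2 exons. It was the isoform with the longest coding sequence among those with the most common start codon. The first coding exon, which begins at the start codon and holds the start of the signal peptide, is shown because it lets the likeness of the 6 copies be read base by base. Each was read 5′ to 3′ from the plus strand of the TAIR10.1 reference, and capitals mark bases identical to GRP9 in a pairwise alignment.
GRP9, chr2:1993134-1993215: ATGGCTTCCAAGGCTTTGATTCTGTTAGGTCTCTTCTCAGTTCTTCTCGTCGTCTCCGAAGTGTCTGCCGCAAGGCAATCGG
AT2G05510, chr2:2015807-2015888: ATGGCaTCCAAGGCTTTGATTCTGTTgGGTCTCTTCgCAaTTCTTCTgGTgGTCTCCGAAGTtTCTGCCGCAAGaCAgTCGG
GRP3, chr2:2026217-2026295: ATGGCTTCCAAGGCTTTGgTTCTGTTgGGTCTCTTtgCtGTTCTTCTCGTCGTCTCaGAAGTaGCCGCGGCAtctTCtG
AT2G05530, chr2:2029755-2029830: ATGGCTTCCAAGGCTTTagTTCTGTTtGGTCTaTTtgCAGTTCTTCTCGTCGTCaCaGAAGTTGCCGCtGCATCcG
GRP3S, chr2:1966851-1966923: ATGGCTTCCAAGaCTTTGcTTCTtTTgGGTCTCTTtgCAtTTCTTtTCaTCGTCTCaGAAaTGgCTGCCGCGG
AT2G05540, chr2:2033265-2033373: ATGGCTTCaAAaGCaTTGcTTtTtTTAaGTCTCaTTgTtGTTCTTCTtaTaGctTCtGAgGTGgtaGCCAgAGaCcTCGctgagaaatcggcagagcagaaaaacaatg
AT2G05510 kept the GRP9 base at 73 of 82 positions (89.0%). GRP3 shared 68 of its 79 bases, AT2G05530 66 of 76 and GRP3S 61 of 73. AT2G05540 had the fewest, with 56 of its 109 bases identical. Its exon was longer than that of GRP9, and only 78 of its bases could be compared.

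The encoded proteins were short, from 115 residues in AT2G05530 to 154 in GRP9, and fell into kinds by composition. GRP9 was the richest in glycine, at 49.4% of residues, and AT2G05510 followed at 41.7%. Both also held much histidine, 11% in GRP9 and 12.6% in AT2G05510, and neither had a cysteine in its last 25 residues. GRP3 (145 residues), GRP3S (116) and AT2G05530 had 32.4%, 31.0% and 30.4% glycine, and each carried 4 cysteines in its last 25 residues, the cysteine-rich tail for which the GRP3 type is known. AT2G05540 (135 residues) had the least glycine, 25.9%, and 3 cysteines there.

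Protein identity, as a percentage of the longer protein, followed the same division except in AT2G05540. GRP9 and AT2G05510 were the closest pair at 77.3%. GRP3S shared 72.4% with AT2G05530 and 65.5% with GRP3, and GRP3 shared 64.8% with AT2G05530. GRP9 shared 56.5% with GRP3 and 44.8% with GRP3S, and its lowest value, 40.9%, was with AT2G05540. AT2G05540 shared 47.4% with GRP3S, 51.7% with GRP3 and 53.3% with AT2G05530, each less than GRP9 shared with GRP3.

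**Figure D1:**
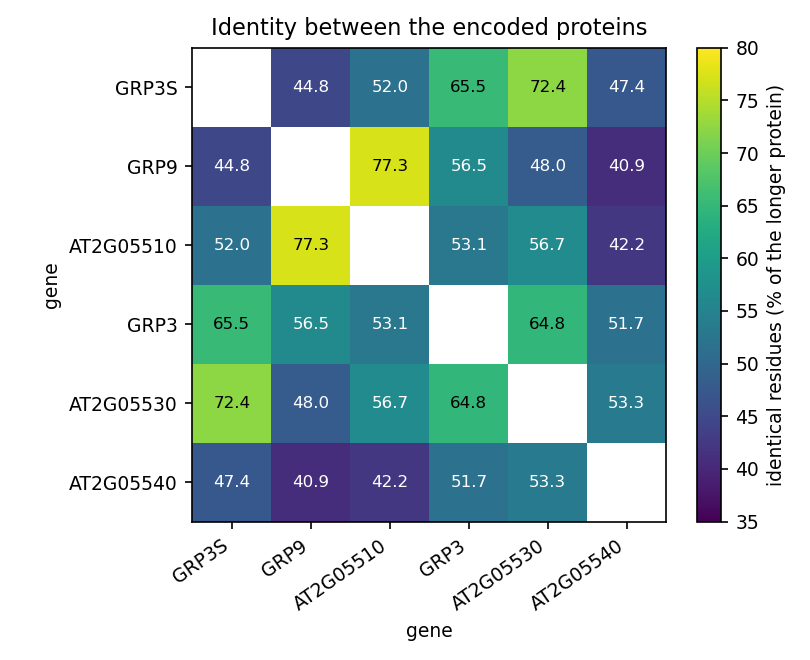
Identity between the 6 encoded proteins, as a percentage of the residues of the longer protein in each pair, with the genes in their order on the chromosome. The pair of GRP9 and AT2G05510 has the highest value, 77.3%, and AT2G05540 is the protein least like GRP9, at 40.9%.

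Reads of 50 bases could in principle be shared between such copies. Of the 898 windows of that length in the GRP3S transcripts, 11 (1.22%) occurred exactly in GRP3, and of 893 windows in GRP9, 4 (0.45%) occurred in AT2G05510. With up to 2 mismatches, sought only among the 6 members, the shares were 3.23% for GRP3S and 3.58% for GRP9. AT2G05530 and AT2G05540 shared none in either way. Nearly all of each transcript thus had no exact copy in another gene at the length of these reads. Near copies outside the members were not sought.

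The members did not move as a block. GRP9 was far lower in epic2, and GRP3S and GRP3 were higher. AT2G05540 was 1.16 times the silex value, at a q of 0.0642 in the authors' deposited table. AT2G05510 and AT2G05530 were close to 0 in both groups. In these bulk samples fewer cells of a type and less RNA per cell cannot be told apart.

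GRP9, the histidine- and glycine-rich member, had an FPKM of 12.6 in silex and of 0.686 in epic2. Its epic2 value was 18.4-fold lower. The authors' deposited table gave a log2 fold change of -4.20, with a standard error of 0.69 implied by its test statistic. On the log2(FPKM + 1) scale, which understates the change of weak genes, the difference was -3.01, the fall of rank 9 among all tested rows. By level it went from rank 8725 to rank 17977 of the table's rows, from a gene of middling expression to one near the floor.

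GRP3S, the short relative of GRP3, went the other way. Its FPKM was 107.0 in silex and 220.7 in epic2, 2.06 times the silex value. The authors' deposited table gave it 1.04 as the log2 fold change, and its statistic implies a standard error of 0.12. Its rise had rank 119 among tested rows on the log2(FPKM + 1) scale.

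GRP3, the WAK1 ligand, was the most abundant member in both groups. Its FPKM was 928.6 in silex and 1318 in epic2, 1.42 times the silex value. The authors' deposited table gave it 0.50 as the log2 fold change, and its statistic implies a standard error of 0.13. Its relative difference was smaller than that of GRP3S, but its gain of 389.2 FPKM was larger than the whole GRP3S level in epic2. It was rank 116 of the table by level in silex and rank 89 in epic2.

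AT2G05540, a glycine-rich protein gene with no symbol in the table, had an FPKM of 137.8 in silex and of 160.3 in epic2. The authors' deposited table gave it 0.22 as the log2 fold change, and its statistic implies a standard error of 0.09. This was the smallest relative difference among the 4 tested members.

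AT2G05510, the closest copy of GRP9, was listed at 0.000201 FPKM for silex and 0.0445 for epic2. AT2G05530, the close copy of GRP3S, was at 0.0362 FPKM in silex and listed at 0 in epic2. The authors did not test either, and no fold is given for such values. Each of the nearest protein pairs therefore joined a gene that was expressed in these seedlings with one that was barely detected.

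Of the 6 members, 4 were tested and 3 of these passed the authors' q of 0.05, beside 18.3% of all 18916 tested rows. GRP3S and GRP3 were the 2 that passed as higher, a direction in which 9.51% of tested rows passed. GRP9 was the 1 that passed as lower, a direction in which 8.8% of tested rows passed. The deposited q-values were 3.6e-08 for GRP9, 0.00119 for GRP3 and 0.0642 for AT2G05540, and GRP3S was listed at 0. Because the members were picked on this contrast, these counts say nothing further about the cluster. The median difference of the 4 tested members on the log2(FPKM + 1) scale was 0.36, beside 0.01 over all tested rows.

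**Figure D2:**
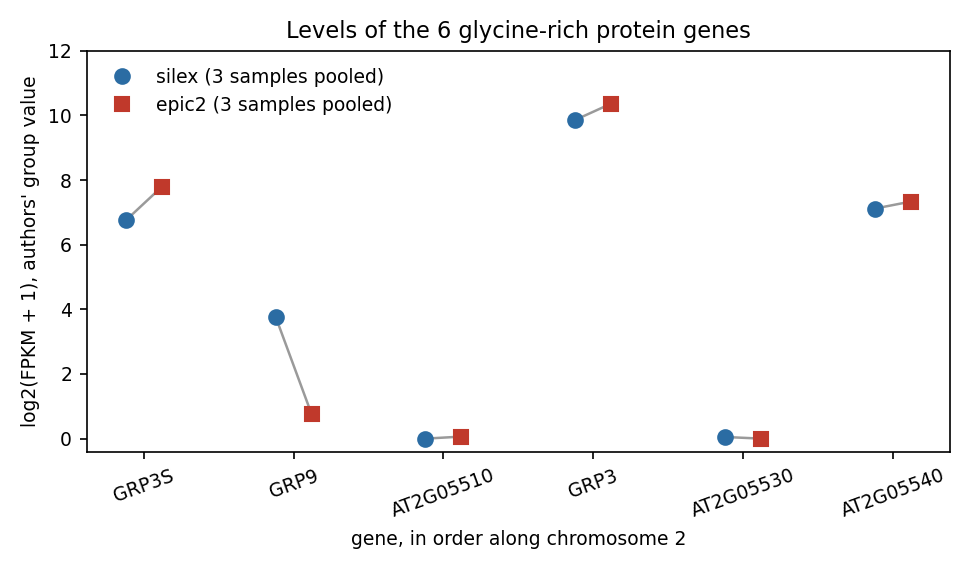
Level of each of the 6 genes as log2(FPKM + 1), in order along chromosome 2, with blue circles for silex, red squares for epic2 and a line joining the pair; each point pools 3 samples, so there are no error bars. GRP9 drops, from 12.6 to 0.686 FPKM, GRP3S and GRP3 are higher in epic2, and AT2G05510 and AT2G05530 lie near 0 in both groups.

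Among the 4 tested members the order of the levels changed in 1 place. In silex it ran GRP3, AT2G05540, GRP3S and GRP9, and in epic2 GRP3S stood above AT2G05540. With no spread over samples, it cannot be said whether neighbours in this order differ beyond sample variation. GRP3 supplied 78.3% of the summed FPKM of the 6 genes in silex and 77.5% in epic2, while the share of GRP3S went from 9.02% to 13.0%. GRP9 made up 1.06% of the sum in silex and 0.0403% in epic2.

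The ratio of GRP3 to GRP9 levels consequently went from 73.8 to 1922. Summed over the 6 genes, FPKM came to 1186 in silex and to 1700 in epic2, a ratio of 1.43. GRP3S, GRP3 and AT2G05540 together gained 525.4 FPKM, so the lower GRP9 value hardly touched the total.

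The tested single-gene rows around the cluster differed less between the groups than GRP9, GRP3S and GRP3, but not all of them less than AT2G05540. Between its first and last member lay 6 other rows. Of these, 5 were listed at 0 in both groups. An unnamed row at 2023279 to 2023997 had 2.86 FPKM in silex against 1.16 in epic2, at a q of 0.115 in the authors' deposited table. Its difference on the log2(FPKM + 1) scale was -0.84, larger in size than the 0.50 of GRP3. Apart from the members, few genes of this stretch had a measurable level.

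Within 100 kb of a member, 31 other single-gene rows were found, 12 of them at 0 in both groups. Of the 13 that were tested, 1 rose and 0 fell at the authors' Cuffdiff q of 0.05, which is 7.69% beside 18.3% of all tested rows. At an unadjusted p of 0.05 in the same test, 3 were higher and 1 lower. The share of all tested rows at that unadjusted threshold was not counted, so neither an excess nor a lack can be read from these counts. The median difference was -0.02 and the range was from -0.35 to 0.34 on the log2(FPKM + 1) scale. Each of these 13 thus differed less than GRP9, GRP3S and GRP3, which were chosen with their differences known. Both ends of the range exceeded in size the 0.22 of AT2G05540. The neighbour that rose was AT2G05220, which encodes a ribosomal protein of the S17 family. In the authors' deposited table it went from 237.9 to 284.1 FPKM, a log2 fold change of 0.26 at a q of 0.0303. Its row has the same interval, 1890887 to 1896036, as the row of its neighbour AT2G05210, so the reads of these genes may be mixed.

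**Figure D3:**
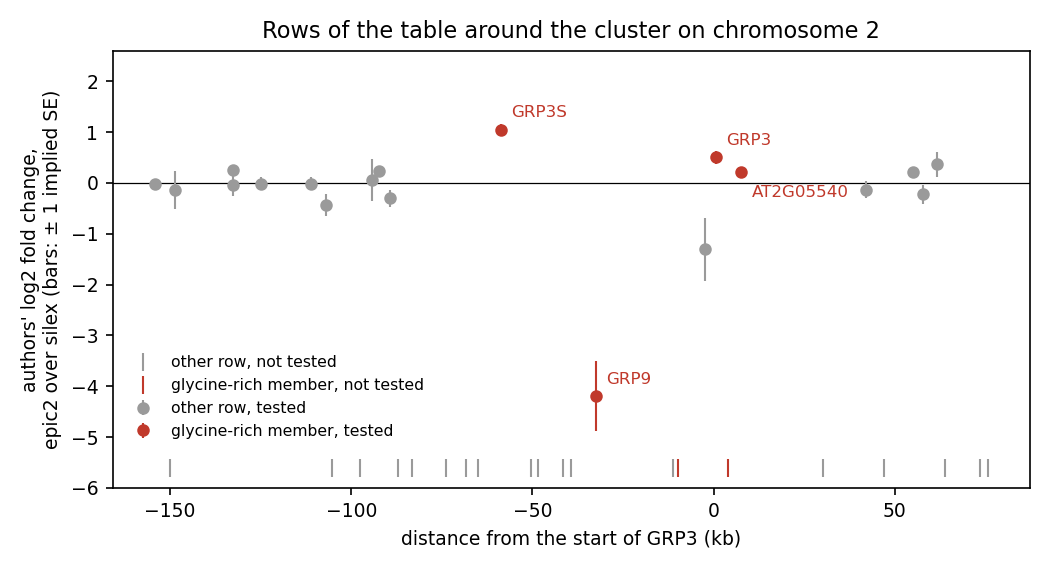
The authors' log2 fold change, epic2 over silex, of the tested rows around the cluster against distance in kb from the start of GRP3, with bars of 1 implied standard error; ticks at the bottom mark rows that were not tested, and red marks the members. GRP9 lies at -4.20 and GRP3S at 1.04, while the other tested rows lie closer to 0 than GRP9, the lowest of them being the unnamed row next to GRP3.

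Just upstream of the rows, the members differed in their resemblance to GRP9. When the 250 bases before each row were aligned to those of GRP9, AT2G05510 had the best score among 25065 promoters, with 175 identical of 194 aligned bases. GRP3S had rank 2, AT2G05530 rank 3 and GRP3 rank 4, while AT2G05540 had rank 311. GRP3S thus had the promoter most like that of GRP9 apart from AT2G05510. Whether these sequences bear on the levels was not tested.

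A longer form of the TATA box, TATAAATA, was found near the start of 5 of the 6 genes and in 8.5% of all promoters. These stretches of 30 bases are shown so that the bases around the motif can be compared. Capitals mark the TATA motif, and all are from the plus strand of TAIR10.1.
GRP9, chr2:1993043-1993072: ctgttcgtttcTATAAATAgagggcatgca
AT2G05510, chr2:2015716-2015745: tcttcgttttcTATAAATAgacagcatgca
GRP3S, chr2:1966774-1966803: ctcattttcatTATAAATAgagagcatgca
AT2G05530, chr2:2029653-2029682: tcttcattctcTATAAATAgtgaatgtttt
AT2G05540, chr2:2033143-2033172: accttgtgatcTATAAATAgaggttttgca
GRP9, AT2G05510 and GRP3S also shared a run of gcatgca at the end of each stretch. The motif began 80 bases before the start codon in GRP9 and in AT2G05510, 66 before it in GRP3S, 91 in AT2G05530 and 111 in AT2G05540. Counted from the row start, it began 28 bases before in GRP9, 31 in GRP3S, 48 in AT2G05530 and 2 in AT2G05540. In AT2G05510 it began 21 bases after the row start, so it lay inside the row. GRP3, the most abundant member, had no match.

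The GRP9 promoter is shown in full because GRP9 is the member with the largest difference. The 250 bases lie at chr2:1992832-1993081 on the plus strand of TAIR10.1, and capitals mark matches to the motifs described next.
GRP9 promoter: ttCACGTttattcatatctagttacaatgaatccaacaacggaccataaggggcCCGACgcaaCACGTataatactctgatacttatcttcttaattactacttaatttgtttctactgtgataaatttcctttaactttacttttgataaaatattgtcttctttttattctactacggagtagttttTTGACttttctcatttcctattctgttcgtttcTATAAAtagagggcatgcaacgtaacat
Matches were sought on both strands from 250 bases before to 50 bases after the start of each row. The core of the abscisic acid response element, ACGTG, matched 4 of the 6 members and 27.5% of 25070 promoters. GRP9 and AT2G05510 held 2 matches each, all on the minus strand and so printed as CACGT above for GRP9, and GRP3 and GRP3S had none in this window. The dehydration response core CCGAC matched GRP3S, GRP9 and GRP3, and 16.2% of promoters. The W-box core TTGAC matched 4 members, GRP9 and GRP3S at nearly the same place (61 and 65 bases before the row), and 49.3% of promoters. The G-box CACGTG, which contains the first of these cores, matched no member and 8.19% of promoters. The TATA core TATAAA matched 5 members and 51.9% of promoters. The as-1 core TGACG, the evening element AAAATATCT, the telo-box AAACCCTA and the GCC box GCCGCC matched no member, and they matched 25%, 2.67%, 8.38% and 3.29% of promoters. A match is a description of letters and was not tested as a binding site.

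Beyond the cluster, of 71 other genes whose annotated product names a glycine-rich protein, 45 were tested, of which 4 rose, 5 fell and 36 did not pass. That is 20% passing, close to the 18.3% of all tested rows, and the median difference of 0.05 on the log2(FPKM + 1) scale stood beside 0.01 over all tested rows. The set's range, from -1.85 to 1.19, did not reach the -3.01 of GRP9, but its upper end lay above the 1.04 of GRP3S. That end was AT3G44950, a weak gene with 0 FPKM in silex and 1.28 in epic2. Its q in the authors' deposited table was 0.343, so it did not pass.

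GRP5, which the annotation describes as more abundant in immature seed pods than in stems and leaves, rose from 75 to 125.7 FPKM. Its log2 fold change in the authors' deposited table was 0.74 ± 0.09 (implied standard error), at a q of 7.43e-14. AT1G66820 rose from 63.4 to 91.3 FPKM, AT4G21620 from 75.4 to 95.4 FPKM, and GR-RBP5, an RNA-binding protein with a glycine-rich tail, from 66.9 to 83.6 FPKM. All 4 were already expressed above 60 FPKM in silex, as GRP3S and GRP3 were.

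AT1G04660 had the largest fall of the set, from 4.79 to 0.607 FPKM. The authors' deposited table gave -2.98 ± 0.42 (log2 fold change and implied standard error), at a q of 7.53e-11. Like GRP9, it stood under 1 FPKM in epic2. AT4G18280, annotated as cell wall protein-like, fell from 13.6 to 7.64 FPKM and AT1G04800 from 142.9 to 101.0 FPKM. AT5G61660 fell from 51.4 to 38.7 FPKM, and CSP4, a glycine-rich cold shock domain protein that binds RNA, from 22.1 to 14.9 FPKM. The falls thus spanned weak and strong genes.

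The 6 members carry the annotated protein domain IPR010800, and the annotation notes name it in 1 gene outside the cluster, AT1G75550. That gene had 5.89 FPKM in silex against 4.46 in epic2, with a q of 0.617 in the authors' deposited table. AT2G05580, a glycine-rich gene of 302 residues that lies beyond the last member, was listed at 0 in both groups.

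**Figure D4:**
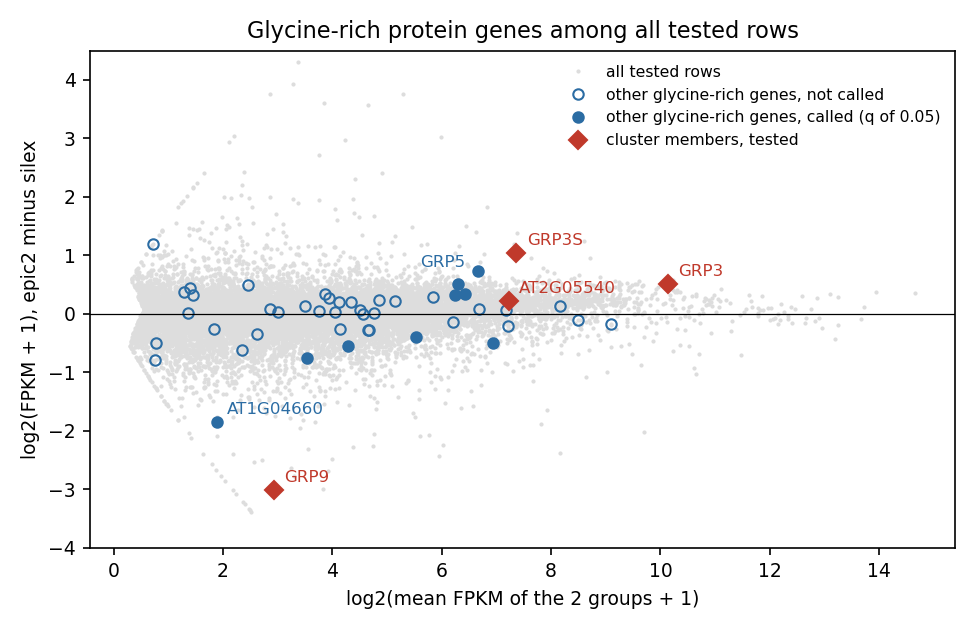
Difference between epic2 and silex on the log2(FPKM + 1) scale against mean level, for all tested rows (grey), other glycine-rich genes (blue circles, filled where the authors' q was 0.05 or less) and the 4 tested members (red diamonds). GRP9 at -3.01 lies below every other glycine-rich gene plotted, of which AT1G04660 is the lowest at -1.85.

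WAK1 and other wall-associated kinase genes were lower in epic2, while the WAK1 ligand GRP3 was higher. The list held 18 such kinases and their relatives, of which 16 had a single-gene row and 9 a test. Among the 9, 0 rose, also at an unadjusted p of 0.05 in the authors' Cuffdiff test, 4 fell and 5 did not pass. That is 44.4%, beside 18.3% of all tested rows in either direction and 8.8% as lower. All 9 had a lower value in epic2, with a median difference of -0.31 beside 0.01 over all tested rows.

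WAK1, the receptor that GRP3 binds, fell from 36.7 to 13.3 FPKM. Its log2 fold change in the authors' deposited table was -1.47 ± 0.13. (implied standard error) WAK2, which is known to bind pectin, fell from 34.6 to 27.0 FPKM, and WAKL9 from 17.2 to 13.7 FPKM. WAKL2 was weak in both groups and fell from 0.926 to 0.332 FPKM. WAK1 and WAK2 are neighbouring, similar genes, and whether they share reads was not examined.

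Genes of other proteins tied to GRP3 and WAK1 did not pass the test in either direction. KAPP, the phosphatase, had 10.1 FPKM in silex against 9.43 in epic2, with a q of 0.652 in the authors' deposited table. MPK6, a MAP kinase, had 30.0 and 27.9 FPKM, with a q of 0.510. The other 2 genes of this list of 4, MPK3 and PSBP-1, stood in rows that name several genes and were not used. The authors' Cuffdiff test thus called 0 of 2, and 0 of 2 had an unadjusted p of 0.05 or less.

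CAD5, the partner of GRP9, had 23.5 FPKM in silex against 24.5 in epic2. The authors' deposited table gave 0.06 ± 0.11 (log2 fold change and implied standard error), at a q of 0.774. Of the 15 monolignol and lignin genes tested, 2 rose, 1 fell and 12 did not pass. That is 20%, close to the 18.3% of all tested rows, and the median difference was 0.05. PAL1, which starts phenylpropanoid synthesis, rose from 74.1 to 92.7 FPKM, and CAD4, an isoenzyme of CAD5, rose from 104.6 to 130.0 FPKM. LAC17, a laccase that polymerises lignin, fell from 11.3 to 8.43 FPKM.

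Glycine-rich RNA-binding proteins share a name and a glycine-rich stretch with the members but work on RNA inside the cell. Of 12 tested genes of these and of the cold shock proteins, 1 rose, 1 fell and 10 did not pass. That is 16.7%, close to the 18.3% of all tested rows, and the median difference was 0.06. The gene that rose was GR-RBP5 and the gene that fell was CSP4, both given above. GRP7, a clock-controlled RNA-binding protein, had 29.1 FPKM in silex against 27.3 in epic2, with a q of 0.772 in the authors' deposited table. Its paralog GRP8 had 159.8 and 131.1 FPKM, with a q of 0.0848.

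**Figure D5:**
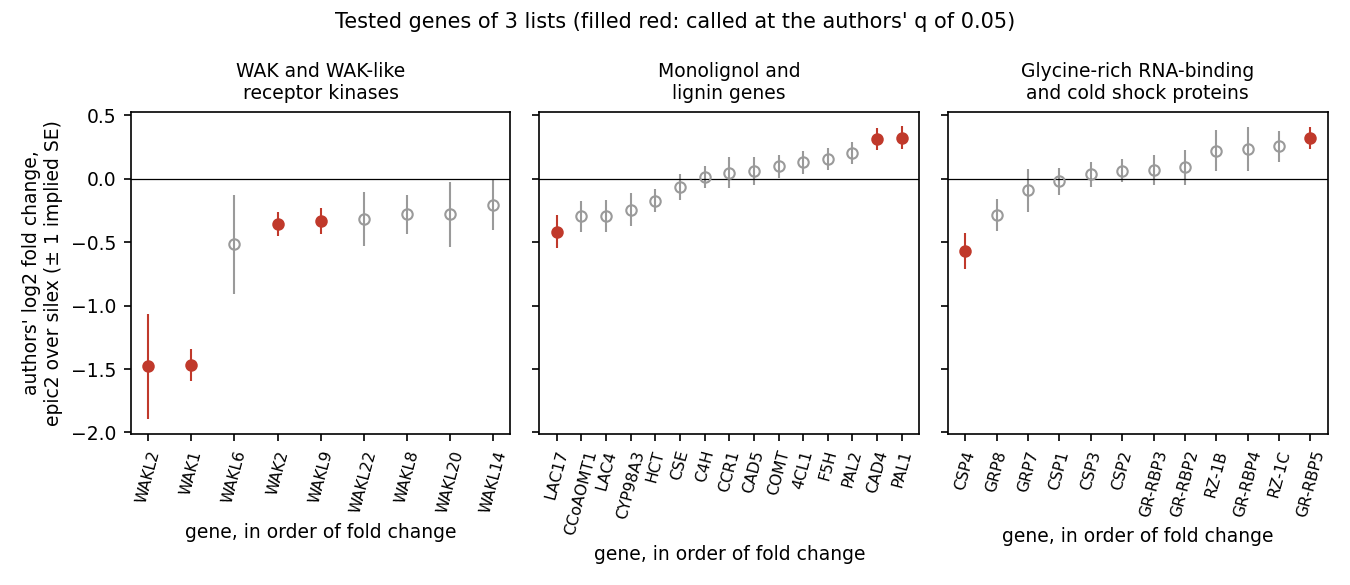
The authors' log2 fold change, epic2 over silex, of each tested gene of the wall-associated kinase, lignin and RNA-binding lists, in order of fold change, with bars of 1 implied standard error and filled red points for genes at a q of 0.05 or less. The 9 wall-associated kinase genes all lie below 0, led by WAKL2 at -1.48 and WAK1 at -1.47, whereas the genes of the other lists lie on both sides of 0.

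The labelled tissue was checked against markers. The 6 leaf markers summed to 33297 FPKM in silex against 31810 in epic2, although RCA was listed at 0 because the authors' software left out rows with too much data. Of 5 leaf markers tested, the authors' Cuffdiff test called 0, beside 18.3% of all tested rows, and 0 had an unadjusted p of 0.05 or less. Their implied standard errors ran from 0.24 to 0.53, beside a median of 0.16 over tested rows. The lack of calls therefore does not show equal levels. The 8 root markers summed to 132.1 FPKM in silex against 55.2 in epic2, nearly all from PYK10, a beta-glucosidase of roots and hypocotyls, which fell from 130.9 to 51.8 FPKM. FRO2 rose from 0.857 to 1.74 FPKM and CASP1 from 0.252 to 1.52 FPKM. All 3 root markers that were tested thus passed the authors' q of 0.05, 2 as higher and 1 as lower. EXPA7, a root hair expansin, was at 0 in both groups, and 5 root markers were under 1 FPKM in both. The 6 oleosin-like glycine-rich genes of the anther summed to 0.583 and 0.266 FPKM. The part of these tissues in the differences of the members was not tested.

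The genes whose pair of levels lay closest to that of GRP9 were found by the distance between log2(FPKM + 1) values over the 2 groups. They were IAA29, an auxin-responsive repressor (10.2 FPKM in silex and 0.987 in epic2, distance 0.37), AT5G22460, an alpha/beta-hydrolase (9.09 and 0.747 FPKM, distance 0.43), and AT5G62280, of unknown function (16.2 and 1.52 FPKM, distance 0.67). The genes closest to GRP3 were the thioredoxin superfamily gene AT3G11630 (901.2 and 1296 FPKM, distance 0.05), the chloroplast RNA-binding protein gene CRB (1030 and 1287 FPKM, distance 0.15) and the ferredoxin gene FD1 (1038 and 1375 FPKM, distance 0.17). The GRP3 neighbours were nearer to it than the GRP9 neighbours were to GRP9. Over 2 values per gene, such likeness describes levels and nothing more.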

How the data were processed

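RNA from 6 samples, 3 per genotype, was made into TruSeq libraries and read as single reads of 50 bases, per the labels' protocols. The submitters' processing notes name TopHat, Cufflinks, Cuffdiff and the TAIR10 build. The authors deposited 1 FPKM value per gene and group, with their log2 fold change, test statistic, p-value and q-value, per the file headers. The deposited p-values were those of a two-sided normal test of the statistic, and the deposited fold changes were ratios of the FPKM values on the log2 scale. Fold change over statistic was therefore used as the standard error. The median implied standard error was 0.16 over tested rows. Depth is unknown, strand is not stated, so antisense reads cannot be told apart, and the labels do not say whether replicates were grown apart, so a p-value covers no more than the variation among these 6 samples.

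Differences were computed as log2(FPKM + 1), epic2 minus silex, and a gene was called where the authors tested it and gave a q of 0.05 or less. Of 26765 rows, 24982 matched a RefSeq TAIR10.1 gene by name. Row starts were shifted by 1 base, since they count from 0. At least 1 row end then fell on a RefSeq transcript end in 53.5% of rows, against 1.33% after a further shift of 1 base, so sequences were read from TAIR10.1 by these coordinates. No protein table was given, so proteins were translated from the reference and no residues are printed.

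The members and lists were chosen with earlier results of these data known. The genes named are the 6 members, up to 8 called neighbours, up to 6 called glycine-rich genes in each direction, up to 4 called genes of each list, WAK1, KAPP, CAD5, GRP7 and GRP8, and the 3 genes nearest to GRP9 and to GRP3. AT2G05580, AT1G75550, AT3G44950, MPK6 and the rows between the members were named after their values were seen. Calls used the authors' q-values as given, and the authors' test itself was not tried on simulated data. Only a Benjamini-Hochberg recalculation of the q-values, run as an alternative, was tried on simulated statistics. The software was Biopython 1.88, matplotlib 3.10.9, scipy 1.17.1, numpy 2.4.6, pandas 2.3.3 and Python 3.11.15.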

Additional observations from a re-analysis of the deposited data

How the results depend on the processing

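The 2-fold minimum below was set on the log2(FPKM + 1) scale, which shrinks weak genes. No paired analysis was possible because the deposited table holds 1 value per group, and for the same reason no replicate could be left out. Of the 13 tested neighbours within 100 kb, 1 passed at a q of 0.05, beside 18.3% of all tested rows. The share of all tested rows was not counted at the other thresholds of this paragraph, so those counts have no background. At a q of 0.01 or with a 2-fold minimum 0 passed, at a q of 0.10 there were 3, and in a window of 50 kb 0 of 6 passed. Of those 6, 3 had an unadjusted p of 0.05 or less in the authors' Cuffdiff test. The share of all tested rows at that threshold was not counted, so neither an excess nor a lack can be read from this count. Of the 45 other glycine-rich genes tested 9 passed, with 14 at a q of 0.10 and 1 with a 2-fold minimum. The receptor, partner, lignin and RNA-binding lists had 9, 2, 15 and 12 tested genes. Of these lists 9 genes passed, with 1 under the 2-fold minimum, WAK1. WAKL2, which is under 1 FPKM in both groups, misses that minimum although its log2 fold change in the authors' deposited table is -1.48. The alternatives for these lists and for the count of members called were chosen after seeing the data. The members called were 3, with 2 to 4 under those alternatives. The GRP9 difference was -3.01, and -4.01 with a pseudocount of 0.1 FPKM or -4.20 with none. The other tested members moved by at most 0.02 under another pseudocount or after centring on the median. AT2G05510 and AT2G05530 are too weak for a stable difference: without a pseudocount the first reached 7.79 and the second had no value. No member's difference changed sign under the alternatives run. A value per sample, which would give a spread for each level, was not used here.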
